A study of Mus musculus with 10 samples.

Results

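Gene expression was compared between untreated mouse embryonic stem (ES) cells and untreated cells that had differentiated from them spontaneously. The members were chosen by their labels alone: 3 arrays of untreated ES cells and 2 arrays of untreated differentiated cells, 5 of the 10 samples in the series. All 5 came from CGR8, a feeder-independent ES cell line of strain SV129, with no genetic change or compound named for these groups. The ES samples were 1 each from passages 25, 26 and 27. The differentiated samples were taken after embryoid body formation for 5 days and then culture for 10 days, without EBIO; their passage is not given in the sources used here. EBIO, an opener of calcium-activated potassium channels, was given to the other 5 samples of the series, which are not described here. The series' design text calls the samples independent experiments, so the spread between such experiments is what the p-values measure; all came from 1 line, and differences between ES lines are not covered. The labels give the same cell morphology for both stages, small and tightly packed; all 8 ES cell markers checked lay above the 75th percentile of every untreated ES array and none did on the differentiated arrays.

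Mouse ES cells renew themselves as long as a core of transcription factors built around Pou5f1 (Oct4), Sox2 and Nanog stays active. When factors such as LIF are withdrawn and the cells are grown as aggregates, the embryoid bodies form derivatives of the germ layers in an order that loosely follows the embryo: primitive endoderm on the surface, then mesoderm with beating heart muscle, endothelium and blood, and ectoderm. Such a culture is a mixture of cell types. An array of its total RNA gives 1 summed level per gene, and fewer cells of a type and less RNA per cell cannot be told apart.

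Levels are log2 values of the authors' RMA processing, which subtracts background, normalizes arrays to each other and sums up the probes of a probe set. The deposited ES and differentiated arrays had been normalized as separate sets: array medians were 4.55 to 4.62 in ES cells and 5.66 to 5.68 in differentiated cells, and the mean difference between array quantiles was at most 0.062 within a stage and at least 0.940 between stages. The 5 arrays were therefore quantile-normalized together, which gave each the median 5.01 and the maximum 14.20. A probe set under 5.01 is called dim here. The low end of RMA values is compressed, so a fold change from or to a group with a dim mean is a lower bound and is written "at least". Pearson's correlation over all probe sets was 0.998 between the differentiated arrays, 0.979 to 0.993 between ES arrays and 0.837 to 0.857 across the stages. Stage and set also differed in the array controls. The 18S ribosomal RNA probe sets averaged 7.67 in ES and 12.87 in differentiated cells, and the poly-A spike-in controls dap, lys, phe and thr averaged 3.50 to 4.03 against 6.24 to 9.59, while the 4 hybridization controls differed by -0.38 to 0.33. The difference between Actb probe sets of the 3-prime and 5-prime end, a sign of RNA integrity, was 0.40 ± 0.06 (SD, n = 3) and 0.42 ± 0.05 (n = 2). Stage and separately processed set cannot be told apart, and the part of these controls in the results was not tested.

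**Figure D1:**
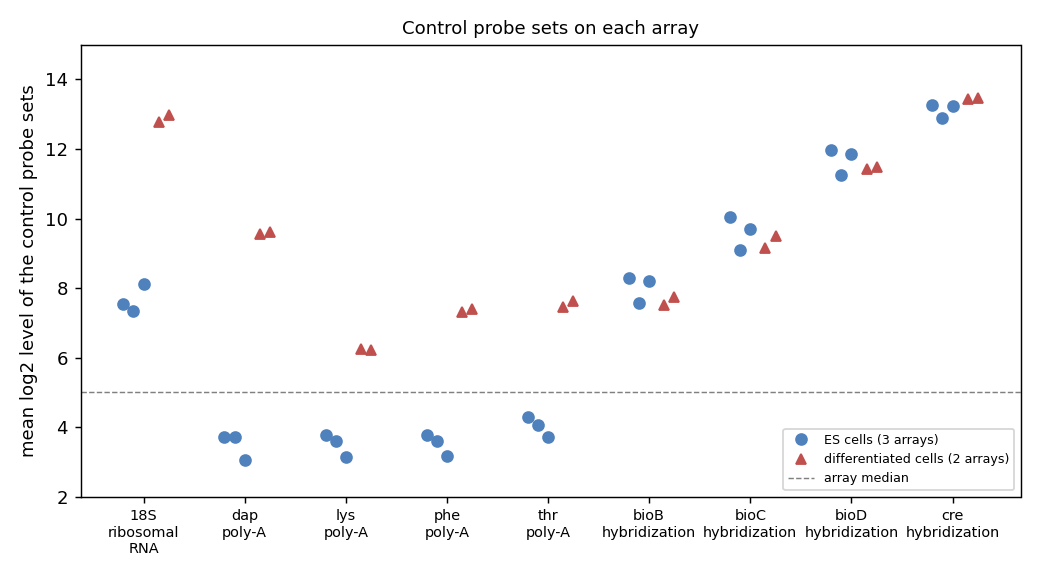
Mean log2 level (vertical axis, 5 arrays on 1 distribution) of each family of control probe sets (horizontal axis) on the 3 ES arrays (circles) and the 2 differentiated arrays (triangles); the dashed line is the array median of 5.01. The 18S and the 4 poly-A families lie higher on both differentiated arrays, by 2.73 to 6.09, and the hybridization families lie at like levels.

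Each gene was represented by 1 probe set, and 13392 of 18193 named genes lay above the array median on at least 2 arrays and were tested with limma. A gene was called at a Benjamini-Hochberg adjusted p under 0.05 and at least a 2-fold difference. By this rule 3059 genes were higher in differentiated cells (22.8% of those tested) and 2828 were lower (21.1%), in all 44.0%, so that 52.0% of calls were rises. Large differences leaned toward rises: 330 genes (2.46%) were at least 16-fold higher and 100 (0.747%) at least 16-fold lower. With no minimum fold 74.3% of genes passed (34.7% higher and 39.5% lower), and complete separation of the 2 groups of arrays was more common still, with 39.3% of genes higher and 45.5% lower on every array. The counts of gene groups are given over all members with a named probe set, those too dim to test included; over all 18193 such genes the calls made up 16.8% higher and 15.5% lower, which is the background for those counts. The scale matters for small differences. On the deposited values 8050 genes were higher and 474 lower (94.4% rises), with each array's median subtracted the share of rises was 66.0%, within-array ranks gave 55.4%, and at least 4-fold differences gave 66.9%. The median difference over all genes tested was -0.12 on the joint scale, 1.33 on the deposited one and 0.24 with medians subtracted. Leaving out differentiated array 1 or 2 left 2071 or 2039 genes higher under the planned rule, which then tested 12237 or 12232 genes because a gene present on 1 differentiated array alone no longer passed the filter; with the filter set at 1 array, an alternative added after the data were seen, the counts were 3040 and 2990.

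**Figure D2:**
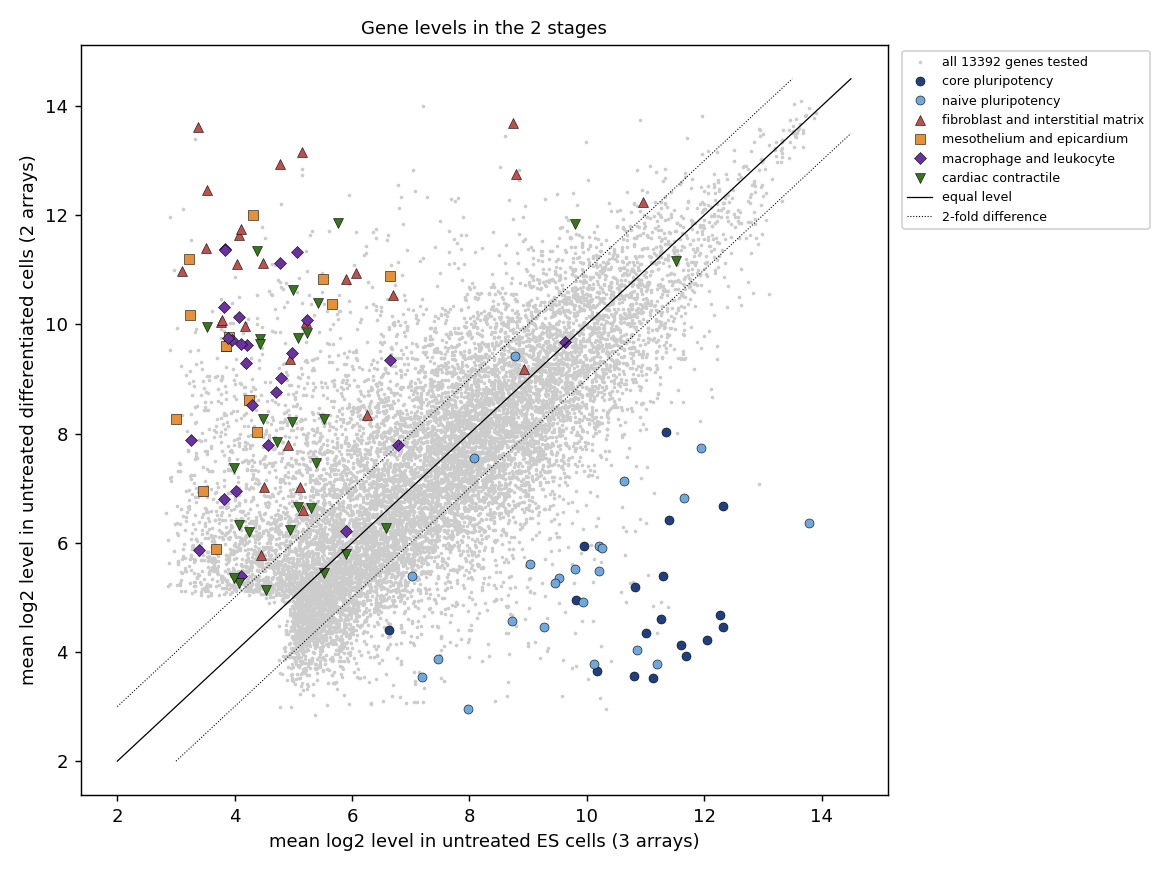
Mean log2 level of the 13392 genes tested in untreated ES cells (horizontal axis, 3 arrays) against untreated differentiated cells (vertical axis, 2 arrays); the solid line marks equal levels and the dotted lines 2-fold differences. Most pluripotency genes (circles) lie at the lower right, and most fibroblast (triangles), mesothelium (squares), macrophage (diamonds) and heart muscle genes (inverted triangles) at the upper left.

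The 15 largest falls were almost all genes by which ES cells are recognised. Zfp42 (Rex1) fell by 7.85, Tdgf1, a co-receptor of Nodal, by 7.83, Nanog by 7.77, Dppa2 by 7.60 and Pou5f1 by 7.59, and L1td1, Dppa5a, Nr0b1 (Dax1), Eras, Fbxo15, Morc1, Trap1a, Tcl1, Dppa4 and Dnmt3l followed with falls of 6.65 to 7.48. The probe set of Eras can cross-hybridise by its design, as can that of Dnmt3l. The same holds for other genes named below, among them Wt1, Acta2, Esrrb, Dlk1 and Apoa1. The 15 largest rises were led by Col3a1 (10.25), Plagl1 (10.06), Afp (9.08), Cdh11 (8.99), Col1a1 (8.94) and Maf (8.28). After them came Dcn, Col4a5, Col1a2, Bnc1, Lum, Ogn, Saa3, Upk3b and Lox, between 7.62 and 8.15. Collagens and the small proteoglycans Dcn, Lum and Ogn belong to connective tissue, Cdh11 is the cadherin of mesenchymal cells, Maf is a transcription factor of macrophages and of other tissues, and Bnc1 and Upk3b are known from mesothelium. All of these genes except Col1a2 and Saa3 were dim on every ES array, and all of the 15 that fell except Dppa5a were dim on both differentiated arrays. In all 969 genes called higher (7.24% of those tested) were dim on every ES array and 717 called lower (5.35%) were dim on both differentiated arrays. Of the former, those with the highest levels in differentiated cells also included Tmem176b (12.20), Ccdc80 (11.78), Col5a2, a fibrillar collagen (11.63), Cryab, a small heat shock protein of muscle (11.59), and C1qb (11.38). Of the latter, those with the highest levels in ES cells also included Zfp982 (11.26, with a probe set that can cross-hybridise), Ooep, an oocyte gene (11.12), and Lrrc34 (10.42).

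Of 19 core pluripotency genes with a named probe set, 18 fell and none rose; the other, Lin28b, was too dim to be tested. The list's median difference was -6.51, where that of all genes was -0.11. The same 18 were called lower on the deposited values, with array medians subtracted and by within-array ranks. Pou5f1 measured 12.26, 12.29 and 12.25 on the ES arrays and 4.69 and 4.67 on the differentiated arrays, a fall of at least 192-fold (SE 0.11 on the log2 scale, limma adjusted p = 2.9e-07). This took it from the 99.2th percentile of every ES array to the 43.8th and 43.4th percentile, inside the dim part of the differentiated arrays. Nanog measured 11.67, 11.91 and 11.49 in ES cells and 3.93 and 3.90 in differentiated cells, at least 219-fold lower (SE 0.16, limma adjusted p = 4.4e-07). Sox2, which neural progenitors and several epithelia also use, measured 12.28, 12.30 and 12.38 against 6.99 and 6.37, a fall of 49.8-fold (SE 0.20, limma adjusted p = 2.1e-06). Sox2 thus stayed above the array median in the differentiated cells with its higher value on array 1, while Pou5f1, Nanog and Zfp42 were dim on both. Lin28a, which blocks the maturation of let-7 miRNAs, fell by 6.51, Sall4 by 5.92, Utf1 by 4.99 and Gdf3 by 4.87. The smallest fall was that of Foxd3, at 2.22 from a mean of 6.63.

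**Figure D3:**
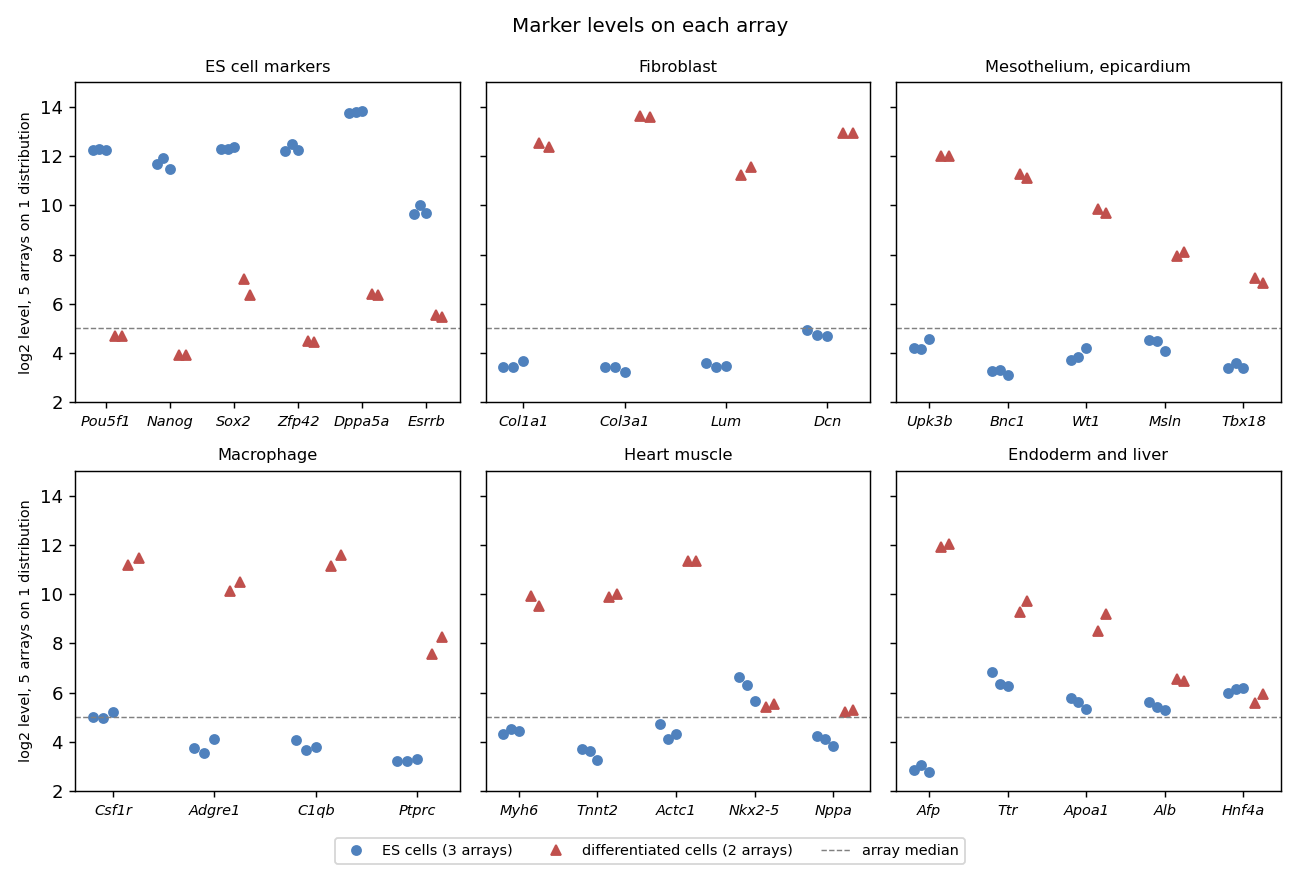
Log2 level (vertical axis, 5 arrays on 1 distribution) of 29 marker genes in 6 panels on each of the 3 ES arrays (circles) and 2 differentiated arrays (triangles); the dashed line is the array median. The ES cell markers lie higher in ES cells; the fibroblast, mesothelium and macrophage markers lie higher in differentiated cells on every array, and the heart and endoderm panels hold both large differences (Actc1, Afp) and small ones (Nkx2-5, Hnf4a).

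The Zfp42 promoter shows the octamer motif that POU factors such as Pou5f1 bind. Below are the 250 bases before the RefSeq start of Zfp42, at chr8:43307010-43307259 on the minus strand of GRCm38.p6, and of Col3a1, the gene with the largest rise, at chr1:45311288-45311537 on the plus strand. They are shown because Zfp42 fell furthest of all genes and because both windows hold the motif although their genes moved in opposite directions. Capitals mark the octamer ATGCAAAT or its reverse complement ATTTGCAT, searched on both strands.
Zfp42: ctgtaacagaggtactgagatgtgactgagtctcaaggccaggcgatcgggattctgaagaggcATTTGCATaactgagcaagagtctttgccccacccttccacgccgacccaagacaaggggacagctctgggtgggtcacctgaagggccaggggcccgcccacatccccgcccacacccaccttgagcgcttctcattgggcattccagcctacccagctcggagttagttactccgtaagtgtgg
Col3a1: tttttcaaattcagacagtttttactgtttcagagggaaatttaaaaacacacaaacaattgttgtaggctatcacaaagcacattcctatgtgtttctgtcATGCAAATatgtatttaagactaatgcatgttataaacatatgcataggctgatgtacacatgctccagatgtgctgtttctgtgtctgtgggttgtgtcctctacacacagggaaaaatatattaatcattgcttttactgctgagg
An octamer was present in 1.60% of all 32851 RefSeq windows of this length, in 1 of 18 windows of core pluripotency genes and in 3 of 27 windows of fibroblast genes. A match of these letters describes the window and is not a binding site shown by these data.

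The naive pluripotency genes, those of the ground state of mouse ES cells, fell in 21 of 23 with a median of -4.27. The 21 included the transcription factors Klf2, Klf4, Klf5, Esrrb, Tfcp2l1, Tbx3, Nr0b1 and Prdm14. Dppa5a measured 13.75, 13.81 and 13.82 in ES cells and 6.38 and 6.34 in differentiated cells, a fall of 173-fold (SE 0.11, limma adjusted p = 2.9e-07). Esrrb measured 9.64, 10.01 and 9.70 against 5.56 and 5.48, a fall of 19.3-fold (SE 0.15, limma adjusted p = 2.4e-06). Klf4, which stromal and epithelial cells also express, fell by 3.51 and stayed at 7.18 and 7.08. The growth factor genes Fgf4, Nodal and Lefty1 fell by 6.35, 5.03 and 4.72. Lifr, the receptor chain for LIF, was not called, with means of 8.77 and 9.42, a difference of 0.65. None of these groups of values overlapped between the stages, as was so for most genes tested (39.3% higher and 45.5% lower without overlap).

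Genes that mark the later, primed epiblast were mostly lower too: 7 of 13 fell, 2 rose and 2 were too dim. Slc7a3, a cationic amino acid transporter, fell by 5.48, Zic5 by 4.0, Otx2 by 2.24 and Zic2 by 2.15. Dnmt3b, a de novo DNA methyltransferase, measured 10.32, 10.07 and 11.41 in ES cells and 6.68 and 6.65 in differentiated cells, a fall of 15.3-fold (SE 0.38, limma adjusted p = 0.00014). Its sister enzyme Dnmt3a went the other way, from 7.45, 7.40 and 7.35 to 9.67 and 9.42, 4.42-fold higher (SE 0.13, limma adjusted p = 1.9e-05). Of the other DNA methylation genes Dnmt3l, a catalytically inactive cofactor, fell by 6.65 and Tet1, which oxidises methylcytosine, by 4.64. Sox4, the other primed-list gene that rose (2.63), is expressed in many embryonic tissues.

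Among 18 germ line genes that ES cells express, 12 fell, 6 were too dim to be tested and none rose. Sycp3, a protein of the meiotic chromosome axis, measured 10.16, 10.27 and 10.29 in ES cells and 4.16 and 4.04 in differentiated cells, at least 70.7-fold lower (SE 0.12, limma adjusted p = 4.4e-07). Tex19.1 fell by 4.84, Rhox5, an X-linked homeobox gene, by 4.22, Mael by 3.98 and Ddx4, an RNA helicase of germ cells, by 3.41. Rhox5 alone among these 5 remained well above the median, at 6.73 and 7.11. Of 5 genes of the totipotent-like state found in rare ES cells, 4 were too dim and Eif1a was not called (-0.68).

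Cell cycle and growth genes were lower by smaller amounts, and the number called depends on the scale. Of 29 DNA replication genes 23 fell and 1 rose (6 and 3 on the deposited values), and of 24 mitosis genes 17 fell (0 on the deposited values, where 1 rose), with medians of -1.58 and -1.27. With array medians subtracted 21 replication genes fell and 1 rose, and 12 mitosis genes fell and 0 rose. By within-array ranks 19 and 10 fell and 0 rose. Mcm10, a factor of replication initiation, fell by 3.28, Cdc6 by 2.87, Pold1 by 2.67 and Pole by 2.62. Among mitosis genes Nek2 fell by 2.48, Bub1 by 2.04 and Aurka by 2.01. Every mitosis gene still lay above the 75th percentile of both differentiated arrays. Inhibitors of the cell cycle and D cyclins rose in 14 of 21, with 1 fall and a median of 1.82. Cdkn2a, the locus of p16 and p19Arf, measured 4.84, 4.96 and 4.88 in ES cells and 10.37 and 10.46 in differentiated cells, at least 45.9-fold higher (SE 0.12, limma adjusted p = 4.8e-07). Gas1 rose by 5.78, Ccnd2 by 4.95, Cdkn2b by 4.42 and Cdkn1a by 3.29.

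Biosynthetic genes were also lower on the joint scale. Ribosome biogenesis genes fell in 15 of 21 (0 on the deposited values, where 2 rose), led by Ppan (-2.22) and Polr1b (-2.19). Genes of serine, glycine and one-carbon metabolism, which supply nucleotide synthesis and methylation, fell in 8 of 10 with 1 rise (5 and 1 on the deposited values). Gldc, the glycine decarboxylase that ES cells hold high, measured 10.83, 10.45 and 10.74 in ES cells and 4.79 and 5.05 in differentiated cells, at least 53.9-fold lower (SE 0.16, limma adjusted p = 1.1e-06). Psat1 fell by 3.53 and Shmt2 by 3.11. Glycolysis genes fell in 8 of 16 (2 on the deposited values, where 4 rose); Pfkl fell by 2.62, Pkm by 2.09 and the glucose transporter Slc2a3 by 1.96. No more than 2 of 26 oxidative phosphorylation genes fell and none rose, with a median of -0.12, although 13 rose on the deposited values. None of 21 cytosolic ribosomal protein genes was called, and their median was -0.05 (2 were higher on the deposited values).

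Chromatin regulators that ES cells carry at a high level fell in 17 of 28, with 1 rise and a median of -1.17 (4 falls and 5 rises on the deposited values). Cbx7, a chromobox subunit of the Polycomb repressive complex of type 1, measured 9.48, 9.47 and 8.90 in ES cells and 5.09 and 4.97 in differentiated cells, a fall by 4.25 (SE 0.21, limma adjusted p = 8e-06). Of the same complex Phc1 fell by 3.32, and Bmi1 rose from 5.94, 6.58 and 6.21 to 8.37 and 8.31, 4.28-fold higher (SE 0.20, limma adjusted p = 0.00012). Of the type 2 complex, Mtf2 fell by 2.61 and Eed by 2.11. Hells, a remodeller needed for DNA methylation, fell by 3.07, and Chd7 by 2.33.

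Connective tissue genes rose to high levels. Of 32 fibroblast and interstitial matrix genes 28 rose, none fell and 3 were too dim; the median was 4.91, and 16 lay above the 95th percentile of both differentiated arrays, against 1 of them on all ES arrays. With either differentiated array left out 12 passed, since the filter needs 2 arrays, and 28 passed with the filter at 1 array. Col3a1, a fibrillar collagen, measured 3.45, 3.43 and 3.21 in ES cells and 13.62 and 13.61 in differentiated cells, at least 1210-fold higher (SE 0.13, limma adjusted p = 2.9e-07). Col1a1, the main collagen of skin and bone, measured 3.45, 3.43 and 3.66 against 12.55 and 12.36, at least 492-fold higher (SE 0.14, limma adjusted p = 2.9e-07). Dcn, decorin, which binds collagen fibrils, measured 4.94, 4.74 and 4.67 against 12.93 and 12.94, at least 284-fold higher (SE 0.13, limma adjusted p = 2.9e-07). For each of these both differentiated arrays lay in the top of the range and every ES array under the median. Postn rose by 6.65, the mesenchymal receptor Pdgfra by 6.30, Tnc by 5.79, Tcf21, a factor of epicardium-derived fibroblasts, by 5.75, Vim by 3.97 and Twist1 by 2.52. Fbln1, already at 8.93 in ES cells, was not called (0.27), and Prrx1, Dpt and Mfap5 were too dim. Of 22 matrix remodelling genes 15 rose and none fell: the crosslinking enzymes Lox and Loxl1 by 7.62 and 6.46, the protease inhibitor Timp3 by 6.38, Adamts5 by 5.04 and the gelatinase Mmp2 by 4.98. Leaving out array 1 or 2 of the differentiated cells gave 10 or 8 of these remodelling genes, and 16 or 14 with the filter at 1 array. Cartilage and bone genes did not move in this way, with 2 rises and 4 falls among 18 (6 and 2 on the deposited values). The 2 that rose, Col11a1 (4.56) and Sox6 (4.26), are also used outside cartilage, and Acan was at 4.95 and 4.74.

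**Figure D4:**
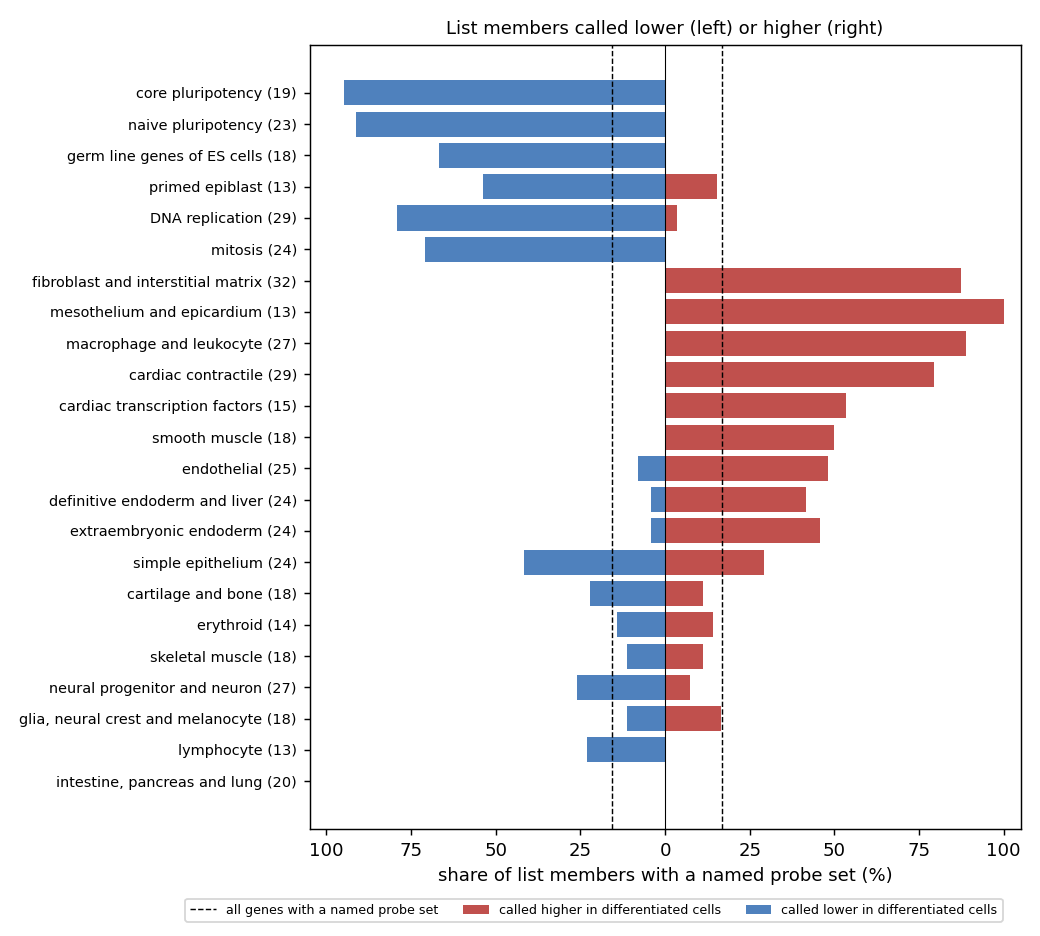
Share of each gene list's members with a named probe set (number in brackets) called lower (bars to the left) or higher (bars to the right) in differentiated cells, in percent; the dashed lines are the same shares over all genes with a named probe set. Pluripotency lists extend to the left, and the mesothelium, macrophage, fibroblast and heart muscle lists to the right.

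All 13 mesothelium and epicardium genes rose, with a median of 5.26; 10 of the 13 were not above the median on all ES arrays. With either differentiated array left out 3 passed, and 13 with the filter at 1 array. The mesothelium is the epithelium that lines the body cavities and covers the heart as epicardium, and it is a source of fibroblasts and smooth muscle in the embryo. Upk3b measured 4.21, 4.17 and 4.58 in ES cells and 12.00 and 12.02 in differentiated cells, at least 206-fold higher (SE 0.16, limma adjusted p = 4.6e-07); its probe set can cross-hybridise. Bnc1, basonuclin, measured 3.25, 3.30 and 3.11 against 11.26 and 11.11, at least 250-fold higher (SE 0.13, limma adjusted p = 2.9e-07). Wt1, the transcription factor that marks epicardium and nephron precursors, measured 3.71, 3.83 and 4.19 against 9.85 and 9.68, at least 57.9-fold higher (SE 0.17, limma adjusted p = 1.2e-06). The Wt1 probe set can cross-hybridise too. In each case the 2 differentiated arrays were alike and the ES arrays dim. Gpm6a rose by 6.94, Upk1b by 5.32, Sema3d by 5.26, Lrrn4 by 4.72, the retinoic acid synthesis gene Aldh1a2 by 4.36, Krt19 by 4.24, Msln (mesothelin) by 3.65, Tbx18, an epicardial and sinus node factor, by 3.49 and Muc16 by 2.2. Tcf21 and Krt19 stand in other lists as well.

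Macrophage genes also rose broadly. Of 27 macrophage and leukocyte genes 24 rose, none fell and 1 (Itgam) was too dim, and the median was 4.48. With differentiated array 1 or 2 left out the count was 6 or 5, and 24 or 23 with the filter at 1 array. C1qb, a chain of complement C1q that tissue macrophages make, measured 4.07, 3.67 and 3.78 in ES cells and 11.16 and 11.59 in differentiated cells, at least 186-fold higher (SE 0.19, limma adjusted p = 6.7e-07). Csf1r, the receptor of the macrophage growth factor, measured 5.00, 4.98 and 5.21 against 11.17 and 11.49, 77.1-fold higher (SE 0.15, limma adjusted p = 6.3e-07). Adgre1, the F4/80 antigen, measured 3.76, 3.56 and 4.11 against 10.12 and 10.50, at least 90.4-fold higher (SE 0.20, limma adjusted p = 1.4e-06). All of these were higher on differentiated array 2 than on array 1. Ptprc (CD45), common to white blood cells, rose by 4.63 to 7.55 and 8.24. The lysozyme genes Lyz1 and Lyz2, which share sequence, rose by 7.53 and 6.35, the mannose receptor Mrc1 by 4.23 and the fractalkine receptor Cx3cr1 by 3.22. Spi1, the lineage factor PU.1, was not called (5.89 and 6.21), nor was Laptm5. Its probe set, which can cross-hybridise, already measured 9.63 in ES cells, against 9.67 in differentiated cells.

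Few genes of other blood lineages rose. Of 15 mast cell and granulocyte genes none rose, 2 fell (0 on the deposited values, where 1 rose) and 10 were too dim, and of 13 lymphocyte genes none rose, 3 fell by 1.09 to 1.12 (0 on the deposited values, where 1 rose) and 6 were too dim. Erythroid genes gave 2 rises and 2 falls among 14 (4 and 0 on the deposited values): the globins Hba-a1 and Hbb-y were dim on every array, Klf1 fell by 1.26 (by 0.36 and without a call on the deposited values), and the 2 that rose, Lmo2 (3.53) and Tal1 (1.31), also act in endothelium.

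Lysosome genes and part of the immune genes were higher as well. Of 18 lysosome genes 13 rose and none fell, Ctss, a cathepsin of macrophages, by 5.10 and Ctsb by 3.80. Of 14 antigen presentation genes 5 rose, all of the class I pathway, and the median was 0.18 (10 rose on the deposited values). B2m, the class I light chain, rose by 3.01, Tapbp by 2.40 and Tap1 by 1.73. Tap2 (0.04), Psmb8 (-0.18) and Psmb9 (-0.25) of the same pathway were not called. Nlrc5 and the class II genes H2-Aa, H2-Ab1 and Ciita were too dim. The 5 rises became 2 at 4-fold or with probe sets averaged per gene, and 3 without probe sets ending in _x_at or _s_at. Of 18 interferon-induced genes 9 rose and 2 fell (12 and 0 on the deposited values), Ifi27 by 3.90 and Gbp2 by 3.76. Gbp2 was also the gene of this group with the widest ES values, at 3.12, 2.78 and 4.77. Complement and acute phase genes rose in 5 of 12, with a median of 0.08 and 4 too dim. Saa3, an acute phase protein, rose by 7.70 and Serping1, the C1 inhibitor, by 4.43. The acute phase genes Hp (-0.68, not called), Lcn2, Cp, Orm1 and Itih4 (all too dim) did not rise. C2 (-0.68) and Cfb (0.15) of complement were not called. Leaving out array 1 or 2 of the differentiated cells gave 5 or 4 interferon and 3 complement rises, and 9 or 8 and 5 with the filter at 1 array.

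Heart muscle genes rose in 23 of 29 contractile members, none fell and the median was 2.26. Actc1, cardiac alpha-actin, measured 4.71, 4.11 and 4.33 in ES cells and 11.33 and 11.34 in differentiated cells, at least 124-fold higher (SE 0.19, limma adjusted p = 9.7e-07). Myl7, the atrial regulatory myosin light chain, measured 5.76, 5.82 and 5.70 against 11.96 and 11.73, 67.9-fold higher (SE 0.13, limma adjusted p = 4.7e-07). Tnnt2, cardiac troponin T, measured 3.69, 3.62 and 3.25 against 9.90 and 9.99, at least 86.1-fold higher (SE 0.16, limma adjusted p = 7.5e-07). For all 3 genes every differentiated array lay far above every ES array. Both myosin heavy chains rose, the alpha chain Myh6 by 5.31 to 9.93 and 9.53 and the beta chain Myh7 by 3.26 to 8.37 and 8.07. Ventricular Myl2 rose by 5.22, Myl4 by 5.63 and Myl3 by 4.61. The genes of mature calcium handling and of the stretched sarcomere were not called or rose little: Ryr2 measured a mean of 4.53 in ES and 5.14 in differentiated cells, Atp2a2 11.52 and 11.17, Ttn 6.58 and 6.27 (a difference of -0.32, and 1.40 on the deposited values), and Pln rose by 1.58. Nppa, the atrial natriuretic peptide, rose by 1.19 and ended at 5.22 and 5.29, just above the median. On the deposited values 27 of the 29 were higher. With either differentiated array left out 12 passed, and 23 with the filter at 1 array.

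Regulators of the heart lineage were split. Of 15 cardiac transcription factors 8 rose and none fell. With differentiated array 1 or 2 left out the count was 0 or 1, and 8 or 9 with the filter at 1 array. Hand2 measured 3.74, 3.75 and 3.37 in ES cells and 10.32 and 10.17 in differentiated cells, at least 98.7-fold higher (SE 0.16, limma adjusted p = 6.3e-07). Gata6 measured 4.88, 4.73 and 4.44 against 11.10 and 11.09, at least 85.0-fold higher (SE 0.16, limma adjusted p = 6.6e-07). Tbx20 rose by 5.94, Mef2c by 3.29, Tbx2 by 2.54, Gata5 by 2.42, Gata4 by 1.77 and Myocd by 1.48. Nkx2-5, an early factor of the cardiac crescent, was not called, at 6.63, 6.30 and 5.67 in ES cells and 5.40 and 5.53 in differentiated cells. Isl1, of the second heart field, was not called either (5.63 and 5.21), nor were Tbx5 (5.33 and 6.30) and Hand1 (5.31 and 5.84). The probe sets of Hand1 disagreed: the 1 other that lay above the median on at least 2 arrays was at least 2-fold lower in differentiated cells. Hand2, Gata6 and Tcf21 are also expressed by epicardial and stromal cells. Of 13 pacemaker and conduction genes 6 rose and 2 fell (9 and 0 on the deposited values); Tbx18 rose by 3.49, Shox2, a sinus node factor, by 1.85 and the calcium channel gene Cacna1g by 1.64. Leaving out either array of the differentiated cells gave 2 pacemaker rises, and 6 with the filter at 1 array.

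Serum response factor, which drives actin and myosin genes in all muscle types, binds the CArG box, and 4 promoters that hold one are shown for genes that rose. Each line gives the 250 bases before the RefSeq start in GRCm38.p6, with the CArG box in capitals: Actc1 at chr2:114052876-114053125 (minus strand), Myl7 at chr11:5898783-5899032 (minus), Myl3 at chr9:110763428-110763677 (plus) and the smooth muscle light chain gene Myl9 at chr2:156775214-156775463 (plus).
Actc1: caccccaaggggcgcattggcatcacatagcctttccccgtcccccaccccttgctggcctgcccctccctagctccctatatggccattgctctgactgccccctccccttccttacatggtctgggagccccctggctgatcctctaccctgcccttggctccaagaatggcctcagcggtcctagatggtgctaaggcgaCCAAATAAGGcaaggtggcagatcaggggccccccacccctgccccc
Myl7: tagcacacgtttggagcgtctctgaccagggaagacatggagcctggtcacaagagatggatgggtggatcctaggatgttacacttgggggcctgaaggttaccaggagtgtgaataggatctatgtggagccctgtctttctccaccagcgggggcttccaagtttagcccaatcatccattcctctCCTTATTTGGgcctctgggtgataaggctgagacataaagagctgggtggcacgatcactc
Myl3: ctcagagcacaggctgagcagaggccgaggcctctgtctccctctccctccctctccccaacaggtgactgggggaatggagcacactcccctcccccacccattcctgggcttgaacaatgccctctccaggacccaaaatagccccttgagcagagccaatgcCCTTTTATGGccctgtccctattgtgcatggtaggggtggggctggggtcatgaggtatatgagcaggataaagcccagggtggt
Myl9: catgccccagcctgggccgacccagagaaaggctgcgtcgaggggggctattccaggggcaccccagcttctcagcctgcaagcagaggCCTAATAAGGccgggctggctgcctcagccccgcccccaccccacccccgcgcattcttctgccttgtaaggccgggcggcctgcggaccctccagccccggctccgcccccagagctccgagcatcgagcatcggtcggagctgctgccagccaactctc
The box began 47 bases before the start in Actc1, 61 in Myl7, 85 in Myl3 and 161 in Myl9. It was found in 7 of 35 windows of the contractile list (6 genes), in 1 of 13 smooth muscle windows and in 1.47% of all windows, on either strand. Windows of the pluripotency, fibroblast and liver lists held none, which says only that these letters are not in those 250 bases.

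Smooth muscle and pericyte genes rose in 9 of 18, none fell and 4 were too dim. With either differentiated array left out 4 passed, and 9 with the filter at 1 array. Acta2, smooth muscle actin, measured 8.40, 6.4 and 7.02 in ES cells and 12.41 and 12.24 in differentiated cells, 33.2-fold higher (SE 0.53, limma adjusted p = 0.0002). Its ES values were widely spread, yet all lay under both differentiated arrays. Tagln rose by 3.83, with ES values of 8.44, 7.06 and 7.73. Mylk rose by 5.49, Itga8 by 5.48, Actg2 by 4.5, the pericyte gene Rgs5 by 4.49 and Myl9 by 3.85. Among the list's other pericyte genes Pdgfrb rose by 5.49, and Cspg4 (-0.40) and Notch3 (-0.01) were not called. Myh11, the smooth muscle myosin heavy chain, was dim on all 5 arrays (4.04 and 4.26), and Cnn1 (5.80 and 5.73, with a difference of 1.45 on the deposited values) and Smtn (6.92 and 7.21) were not called. Skeletal muscle genes gave 2 rises (Des by 1.31 and Cav3 by 1.34, both shared with heart) and 2 falls among 18 (4 and 0 on the deposited values), and 12 were too dim, Myod1, Myog, Myf5 and Pax7 among them.

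Endothelial genes rose in 12 of 25, with 2 falls and a median of 0.93 (22 rose on the deposited values and 8 by within-array ranks). With either differentiated array left out 6 passed, and 12 or 11 with the filter at 1 array. Cdh5, the cadherin of endothelial junctions, measured 3.87, 3.95 and 3.72 in ES cells and 6.56 and 6.73 in differentiated cells, at least 6.96-fold higher (SE 0.13, limma adjusted p = 7.3e-06). Kdr, the VEGF receptor, measured 5.34, 5.51 and 5.55 against 7.83 and 7.70, 4.91-fold higher (SE 0.13, limma adjusted p = 1.4e-05). Aplnr rose by 5.71, Ets1 by 4.02, Cd34 by 3.10, Lyve1, also a macrophage and lymphatic gene, by 2.88, Ramp2 by 2.31 and Tek by 2.00. Vwf fell by 1.66, from a mean of 5.36 to 3.70. Tie1, Eng, Egfl7, Nos3 and Plvap were among those not called. Pecam1, which ES cells carry too, fell from 8.28, 8.36 and 8.19 to 6.01 and 6.17. These levels were modest: none of the 25 lay above the 95th percentile of both differentiated arrays.

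Endoderm genes gave 1 very large rise and several smaller ones. Of 24 definitive endoderm and liver genes 10 rose and 1 fell, with a median of 0.74 (16 rose on the deposited values). With differentiated array 1 or 2 left out the count was 2 or 4, and 9 or 10 with the filter at 1 array. Afp, alpha-fetoprotein of yolk sac and fetal liver, measured 2.84, 3.06 and 2.77 in ES cells and 11.90 and 12.03 in differentiated cells, at least 540-fold higher (SE 0.14, limma adjusted p = 2.9e-07). Rbp4, the retinol carrier, rose by 4.78, Apoa1 by 3.28, Foxa1 by 3.06 and Ttr, transthyretin, by 3.03. Alb, albumin, rose by 1.08 to 6.55 and 6.47, and Hnf4a, the hepatocyte and visceral endoderm factor, was not called, with values of 5.99, 6.14 and 6.17 against 5.57 and 5.96 (a difference of -0.33, and 1.24 on the deposited values). Cps1, Apoc3 and Prox1 were too dim. The extraembryonic endoderm list, which shares Afp and Ttr, had 11 rises and 1 fall among 24 (19 and 0 on the deposited values); Dab2 rose by 5.11, Col4a1 by 5.20 and Plat by 5.62, all also expressed by stroma or endothelium. Of its regulators Gata6 rose by 6.41 and Gata4 by 1.77, Sox17 was not called (5.12 and 5.21) and Sox7 was too dim; the uptake receptor gene Cubn was not called (4.70 and 5.07), and its partner Amn fell by 1.51. Leaving out array 1 or 2 of the differentiated cells gave 5 or 6 rises in this list, and 10 or 11 with the filter at 1 array.

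The Afp promoter is shown for the site of the liver factor HNF1. The 250 bases before its RefSeq start lie at chr5:90490464-90490713 on the plus strand of GRCm38.p6, with the HNF1 motif, searched on both strands, in capitals.
Afp: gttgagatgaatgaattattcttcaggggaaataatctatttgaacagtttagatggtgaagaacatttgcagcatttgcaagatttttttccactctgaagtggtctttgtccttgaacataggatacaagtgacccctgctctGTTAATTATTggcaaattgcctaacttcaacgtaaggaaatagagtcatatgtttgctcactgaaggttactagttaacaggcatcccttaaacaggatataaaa
This motif was found in 0.371% of all windows of this length and in 1 of 28 windows of the endoderm and liver list, that of Afp. It was also in 1 of 20 windows of the naive pluripotency list, that of Nr5a2, which fell by 4.17.

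Of 24 simple epithelium genes 7 rose and 10 fell (11 and 3 on the deposited values). The rises were 4 keratins, the cadherin Cdh3, the tight junction gene Ocln and the desmosome gene Dsp. Krt7 measured 4.93, 4.88 and 4.56 in ES cells and 10.70 and 10.69 in differentiated cells, at least 59.8-fold higher (SE 0.15, limma adjusted p = 7.4e-07). Krt19 rose by 4.24, Krt8 by 3.19, Dsp by 2.59, Cdh3 by 2.19, Krt18 by 1.82 and Ocln by 1.63. Cdh1, E-cadherin, which ES cells carry at a high level, fell from 10.98, 11.01 and 11.39 to 8.66 and 8.50. Epcam fell by 1.71, but only by 0.94 and without a call where the mean of its probe sets was used. Tjp3 fell by 3.12, Ap1m2 by 2.86 and Grhl2, a factor that maintains epithelia, by 2.40. Stratified epithelium genes gave 6 rises and 3 falls among 16, with Krt15 up by 3.36 and Trp63 down by 1.96. Of 15 kidney and urogenital genes 4 rose and 2 fell (7 and 2 on the deposited values). The podocyte gene Nphs1 fell by 3.61 and Sall1, which ES cells also express, by 3.45. The rises were Wt1, Osr1 (5.05), Podxl (3.66) and Emx2 (2.37), of which Wt1 and Osr1 are also genes of mesothelium and its precursors, while the nephron genes Pax8 and Umod were too dim. Leaving out either array of the differentiated cells gave 1 kidney rise, and 5 with the filter at 1 array.

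Few neural genes rose. Of 27 neural progenitor and neuron genes 2 rose, 7 fell and 11 were too dim (6 and 5 on the deposited values). Stmn2, a neuronal growth protein that ES cells also carry, measured 10.80, 10.94 and 10.63 in ES cells and 5.27 and 5.30 in differentiated cells, a fall of 45.4-fold (SE 0.14, limma adjusted p = 6.6e-07). Stmn3 fell by 3.51, Pax6 by 2.79, Tubb3 by 2.54 and Mapt by 2.48, and Dcx, Map2, Elavl4 and Snap25 were too dim. The 2 that rose were the adhesion gene Ncam1 (3.87), which mesenchyme and heart muscle also express, and Lhx2 (1.91). Among 18 glia, neural crest and melanocyte genes 3 rose, Ednrb (5.25), Mbp (1.62) and Fabp7 (1.49), and 2 fell, the melanosome gene Pmel by 3.09 and Gfap of astrocytes by 2.27 (5 and 2 on the deposited values). Olig2, Tyr and Dct were too dim. None of 20 intestine, pancreas and lung genes was called by limma and 11 were too dim; with no minimum fold 3 were higher and 2 lower, and on the deposited values 5 were higher. The largest differences among the 9 tested were those of Sftpc (-0.99) and Nkx2-1 (0.70). Of 14 trophoblast genes 2 rose and 4 fell (7 and 1 on the deposited values); Tfap2c fell by 5.35 and Plac1 rose by 2.72. Adipocyte genes rose in 4 of 10, Fabp4 by 5.90, Lpl by 3.60, Cd36 by 3.49 and Cebpa by 1.90, all also expressed by cells of the myeloid lineage, and the adipocyte genes Adipoq and Pparg were too dim. Leaving out either array of the differentiated cells gave 1 neural, 1 glial, 1 trophoblast and 1 adipocyte rise, and 2, 3, 3 or 2 and 4 with the filter at 1 array.

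Genes of growth factor pathways rose widely. Of 10 genes of the insulin-like growth factor system 8 rose and none fell. Igf2, the imprinted fetal growth factor, measured 7.67, 7.18 and 6.79 in ES cells and 14.00 on both differentiated arrays, at least 111-fold higher (SE 0.25, limma adjusted p = 2.9e-06). At 14.00 it lay next to the array maximum of 14.20, where a signal may be saturated, so this fold is a lower bound too. Igf1 rose by 6.87, Igfbp4 by 6.12, Igfbp7 by 5.76 and Igfbp3 by 5.33. Of 21 imprinted genes 11 rose and 3 fell (16 and 1 on the deposited values). Plagl1 (Zac1), a zinc finger factor, measured 3.23, 3.27 and 3.47 against 13.48 and 13.29, at least 1070-fold higher (SE 0.14, limma adjusted p = 2.9e-07); its probe set can cross-hybridise, and no other of its probe sets differed by 2-fold the other way. Dlk1 rose by 7.60, Peg3 by 4.36, Sgce by 4.08, Ndn by 3.68 and Cdkn1c by 2.68, and Phlda2 fell by 5.64. Leaving out either array of the differentiated cells gave 7 imprinted rises, and 11 with the filter at 1 array.

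Targets and ligands of BMP and TGF-beta rose in 16 of 23 and fell in 1. The receptor Tgfbr2 rose by 5.94, the latent TGF-beta binding protein Ltbp2 by 5.53, the ligands Tgfb3 and Bmp2 by 5.23 and 4.38, and the BMP targets Id3 and Smad6 by 4.41 and 3.16. Wnt ligands, targets and antagonists rose in 10 of 23 and fell in 2 (16 and 0 on the deposited values), Wnt5a by 5.90, Dkk2 by 3.23, Lef1 by 2.76 and Wnt4 by 2.22. Axin2, a general target of canonical Wnt signalling, was not called (5.79 and 6.27). In the retinoic acid pathway 7 of 17 rose and 5 fell (9 and 1 on the deposited values, 7 and 2 with medians subtracted). The synthesis genes Aldh1a1 and Aldh1a2 rose by 6.92 and 4.36, Dhrs3 by 6.05 and the receptor Rarb by 4.92. The 5 that fell were the synthesis gene Aldh1a3 (by 1.26), the receptors Rarg (3.67) and Rara (1.51), Crabp1 (1.61) and Crabp2 (1.40). Rarb measured 3.31, 3.55 and 3.68 in ES cells and 8.56 and 8.31 in differentiated cells, and Rarg 9.94, 10.21 and 9.63 against 6.26 and 6.25. Neither overlapped between the stages, as was so for most genes tested (39.3% higher and 45.5% lower without overlap). Of 33 Hox genes 5 rose, 3 fell and 16 were too dim; none fell on the deposited values (11 rises), with medians subtracted or by ranks (6 rises each). Hoxd8 rose by 3.38, Hoxc8 by 3.28, Hoxb2 by 3.25 and Hoxb4 by 1.71, and several members at the 5-prime ends of the clusters (Hoxa13, Hoxb13 and Hoxd12) were too dim, while Hoxc13 and Hoxd13 were not called. Of 17 primitive streak and early mesoderm genes 3 rose, Pdgfra, Fgf8 (2.34) and Kdr, and 3 fell (6 and 0 on the deposited values), with Eomes down by 1.58; the streak factors Gsc and Tbx6 were too dim. Leaving out array 1 or 2 of the differentiated cells gave 9 or 8 BMP and TGF-beta, 4 or 5 Wnt, 2 retinoic acid, 1 Hox and 1 streak gene rise, and 16 or 15, 9 or 10, 7, 4 or 6 and 3 with the filter at 1 array.

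Genes of calcium-activated potassium channels, among which are those that EBIO opens, lay at middle levels. Their median percentile was 62.4 in ES and 52.1 in differentiated cells, where that of all named genes was 64.7 and 66.2. None of the 7 lay above the 75th percentile on all arrays of a stage. Kcnn4, the intermediate-conductance channel, measured 6.42, 6.15 and 6.37 in ES cells and 5.30 and 5.21 in differentiated cells, a fall by 1.06 (SE 0.13, limma adjusted p = 0.00047). Kcnn3 measured 6.39, 5.75 and 5.53 against 4.78 and 4.74, a fall by 1.13 (SE 0.25, limma adjusted p = 0.0063). By within-array ranks the difference of Kcnn4 was -0.79 and that of Kcnn3 also fell short of the threshold, as did that of Kcnn4 without differentiated array 2 (-0.95) and that of Kcnn3 without ES array 1 (-0.94), and on the deposited values the differences were 0.38 and 0.06. Kcnn1 (5.87 and 5.13) and Kcnma1 (5.94 and 5.20) were not called, and Kcnn2 was too dim (4.67 and 4.57). Kcnmb4, an accessory subunit, rose by 1.20 (SE 0.25, limma adjusted p = 0.0043), but by 1.00 and without a call when ES array 3 was left out, by 0.97 with the replicate block and by 0.92 by ranks.

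The 2 differentiated arrays agreed closely, with a median absolute difference of 0.09 over 12210 genes above the median and 6 genes differing by 2-fold. Some gene lists were shifted between them. Macrophage genes were higher on array 2 in 24 of 26 members above the median on both arrays, with a median of 0.42, where the median of all 11850 such genes was 0.01 and 6375 of them were higher. Definitive endoderm and liver genes had a median of 0.28 (12 of 17 higher), interferon-induced genes 0.20 (12 of 14) and lysosome genes 0.10 (16 of 18). Mesothelium genes had a median of -0.14 (4 of 13 higher) and cardiac contractile genes -0.05 (10 of 28). The genes that differed most, chosen for that after their values were seen, included the macrophage receptor Marco, at 5.98 and 7.06 on arrays 1 and 2, the antiviral gene Oas1a, at 6.77 and 7.93, and the metalloreductase Steap4, at 7.22 and 5.73. With 2 arrays these are descriptions of 2 cultures without a test. Among ES arrays the one of passage 27 stood apart, with a median absolute difference of 0.29 and 0.23 from those of passages 25 and 26, which differed by 0.17. Naive pluripotency genes had a median of -0.31 at passage 27 against the mean of the other passages, with 5 of 23 higher, where the median of all genes was -0.05. Other lists were shifted as far on this array, among them Hox genes (-0.42), antigen presentation (-0.39), cartilage and bone (-0.36), retinoic acid (-0.36), the IGF system (-0.33) and kidney (-0.32). Klf5 (12.34 and 12.27 against 11.24) and Klf2 (11.88 and 11.80 against 11.27) were among the lower ones.

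**Figure D5:**
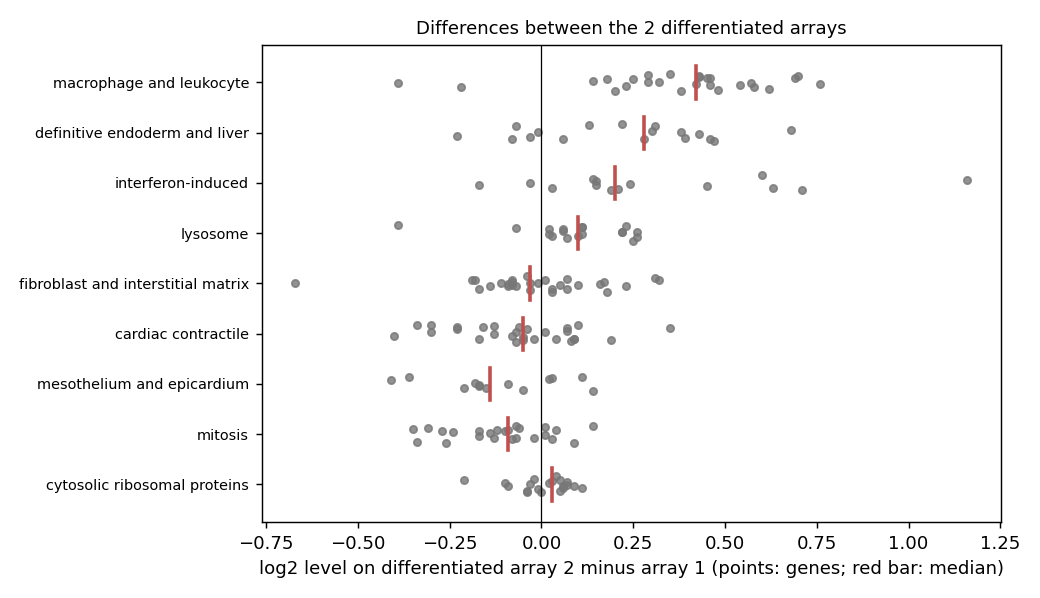
Difference in log2 level between differentiated array 2 and array 1 (horizontal axis) for genes of 9 lists (rows) that lay above the median on both arrays; each point is a gene and the red bar the list's median. Macrophage genes lie to the right with a median of 0.42, and ribosomal protein, heart muscle and fibroblast genes lie around 0.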

How the data were processed

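RNA was measured on 10 arrays of 45101 probe sets, 5 of which are described here. The authors deposited log2 values from RMA (a tool the submitters' processing notes name); its version is not given in the sources used here, and that the stages were normalized apart was read from the values. The 5 arrays were quantile-normalized together. Of 45037 non-control probe sets 34945 had 1 gene symbol in GEO's platform annotation, 932 several and 9160 none, and 34742 symbols were updated through RefSeq. The probe set with the highest mean stood for each of 18193 genes. Genes above the array median on at least 2 of the 5 arrays were fitted with limma 3.58.1 (R 4.3.3), with stage as the only term. On data simulated for this comparison (12351 genes tested), 94, 86, 98 and 100% of 50 genes each were recovered at log2 differences of 1.5, 2, 3 and 4, and 2 unchanged genes were called. The genes changed in the simulation were few, split equally between rises and falls, and chosen well above the median in ES cells. In the data 44.0% of genes tested were called and many were dim in 1 stage. The simulated rates therefore hold for the simulated setting only. Gene lists (52, of which 925 of 1015 distinct genes had a named probe set) and members were chosen with earlier results of these data known. Named genes are list members, the 15 largest rises and falls without overlap, and the 15 brightest called genes dim in the other stage. The alternatives tried were other scalings, filters, fold minimums, choices of probe set, all 10 arrays, a replicate block and leaving out each array. Whether replicate numbers pair the samples is not stated. Correlations of deviations were -0.13 to 0.13, but the deviations of 2 differentiated arrays mirror each other, so this check cannot exclude pairing.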

Additional observations from a re-analysis of the deposited data

Results flagged for a closer look

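Control probe sets, which no comparison above is about, differed between the stages. On the joint scale the 18S ribosomal RNA probe sets were higher in differentiated cells by 5.20 (7.55, 7.35 and 8.12 on the ES arrays, 12.77 and 12.98 on the differentiated arrays). The poly-A control dap was higher by 6.09, lys by 2.73, phe by 3.84 and thr by 3.51. The arrays of EBIO-treated cells in each set were alike in this: dap lay at the 12.0, 14.7 and 6.5th percentile on the treated ES arrays and at the 90.2 and 90.3th on the treated differentiated arrays.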

How the results depend on the processing

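The 18 falls of core pluripotency genes and the 21 of naive genes were within 1.5 times of these counts under every alternative run. On the deposited values 8050 genes were higher and 474 lower, with 14 smooth muscle, 22 endothelial and 16 endoderm and liver genes higher, and 0 mitosis and 6 DNA replication genes lower. At least 4-fold differences left 1364 higher and 676 lower genes, 7 endothelial and 6 endoderm rises, and 3 mitosis and 10 replication falls; with no minimum fold 4653 were higher and 5291 lower. A filter at the 75th percentile left 6 germ line falls and 5 endothelial and 5 endoderm rises, and within-array ranks left 10 mitosis falls. Leaving out each array in turn gave 2039 to 3081 genes higher, 2680 to 3045 lower, and rises of 12 to 23 contractile, 4 to 9 smooth muscle, 12 to 28 fibroblast, 6 to 14 endothelial, 5 to 24 macrophage, 2 to 10 endoderm and 3 to 13 mesothelium genes. These low counts come without 1 differentiated array and its filter; with the filter at 1 array, added after seeing the data, 3040 or 2990 genes were higher. With the replicate number as a block 3094 were higher and 3029 lower, and 2958 and 2750 of the calls above remained. Correlations of deviations with the same number were -0.11 and 0.05, which cannot exclude that the numbers pair the samples. All 10 arrays fitted together gave 3068 and 2849, averaging all probe sets of a gene 2411 and 2366, and only probe sets not ending in _x_at or _s_at, added after seeing the data, 2951 and 2832. Among named genes the sign turned on the deposited values for Hnf4a (1.24), Ttn (1.40), Cnn1 (1.45), Kcnn4 (0.38) and Kcnn3 (0.06). Beyond the scaling itself the cause of these changes was not tested. Precision is limited by having 3 and 2 arrays, and differences below the array median are compressed.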
